A study of Mus musculus with 5 samples.

Results

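Genes of the Wnt pathway were examined in the chromatin of mouse embryonic stem cells that lack or carry DDX5, an RNA helicase of the DEAD-box family. The set comprised 47 genes: 19 Wnt ligands, 10 Frizzled receptors, 11 secreted antagonists, 4 R-spondins and 3 intracellular regulators. They were picked by name, and all 47 were found among the 21631 protein-coding genes of the RefSeq table. A gene was called marked when a chromatin immunoprecipitation sequencing (ChIP-seq) peak shared at least 1 bp with the gene or the 2 kb on either side of it. H2AK119ub was profiled in DDX5-/- cells and in wild-type cells, and RYBP was profiled in wild-type cells alone, with an antibody against DEDAF, an alias of RYBP. The cells of both genotypes were the MPI-II embryonic stem cell line, grown on feeder cells with LIF, 1 µM of the MEK inhibitor PD0325901 and 3 µM of the GSK3 inhibitor CH99021. The knockout line was monoclonal, and its Ddx5 gene had been cut in the second exon by a Cas9 nickase with a pair of guides. Each of the 3 groups had 1 library, so the differences below have no replicate check and no p-value. The 2 input libraries were not analysed here.

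Wnt ligands are secreted lipid-modified proteins that bind Frizzled receptors and their LRP co-receptors. In the canonical branch, receptor binding blocks GSK3 in the destruction complex, so that beta-catenin accumulates and enters the nucleus. GSK3 inhibitors such as CH99021 act at that step, and both genotypes were grown with it. H2AK119ub is the ubiquitin mark that Polycomb repressive complex 1 (PRC1) sets on histone H2A, mostly at silent developmental genes with CpG-rich promoters. RYBP is a subunit of the variant forms of PRC1, of which the form with KDM2B binds unmethylated CpG dinucleotides.

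The peak lists held 20994 H2AK119ub peaks over 30.6 Mb in the knockout library, 24235 over 45.9 Mb in the wild-type library, and 9564 RYBP peaks over 17.2 Mb. Read depth is unknown, so a library difference in peak calling and a difference in chromatin cannot be told apart, nor can fewer cells with a mark and less mark per cell. Chromosome 6 was an exception to the lower knockout coverage: over protein-coding genes and their flanks the ratio of knockout to wild-type covered length was 1.28 on chromosome 6 and 0.63 elsewhere. Values for the 4 members on chromosome 6 (Wnt2, Wnt5b, Wnt7a and Wnt16) are therefore also given apart. Of 8 embryonic stem cell genes, Esrrb alone carried H2AK119ub, in both genotypes, and Pou5f1, Nanog, Sox2, Zfp42, Tfcp2l1 and Dppa5a had no peak in any library. Of 8 fibroblast genes, Col1a1, Thy1 and Pdgfrb were marked in both genotypes, and Col1a2, Vim, Fn1, S100a4 and Dcn in neither. These shares, 12.5% of the stem cell genes and 37.5% of the fibroblast genes, stand beside 20.7% of all genes marked in both genotypes. Peak lists hold no expression, so these genes describe chromatin and do not identify the cells.

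RefSeq promoters of GRCm38.p6, the assembly that mm10 is made from, were found for 32 of the 47 members. Each spans 250 bases before to 50 bases after the gene start and is printed 5′ to 3′ with CG dinucleotides in capitals. Shown are the promoters of Frat1 and Frat2, which were marked in the knockout alone over the gene and its 2 kb flanks, though not in the promoter. The others are those of the ligand, the receptor and the antagonist with the longest wild-type coverage. For ligands Wnt3 is printed, since the table has no entry for Wnt7b.
Frat1 promoter, chr19:41829720-41830019, plus strand: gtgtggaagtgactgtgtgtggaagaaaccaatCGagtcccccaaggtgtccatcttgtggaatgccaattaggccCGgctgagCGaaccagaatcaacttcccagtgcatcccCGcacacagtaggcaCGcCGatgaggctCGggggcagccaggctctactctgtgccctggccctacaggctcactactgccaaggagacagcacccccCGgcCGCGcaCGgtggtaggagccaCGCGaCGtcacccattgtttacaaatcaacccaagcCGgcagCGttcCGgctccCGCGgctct
Frat2 promoter, chr19:41848083-41848382, minus strand: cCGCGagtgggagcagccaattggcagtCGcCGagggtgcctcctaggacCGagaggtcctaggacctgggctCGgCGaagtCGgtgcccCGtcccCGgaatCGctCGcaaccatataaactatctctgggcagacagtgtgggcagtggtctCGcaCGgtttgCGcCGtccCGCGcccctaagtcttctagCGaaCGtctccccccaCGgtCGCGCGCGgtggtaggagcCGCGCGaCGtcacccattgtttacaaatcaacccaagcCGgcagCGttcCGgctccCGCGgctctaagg
Wnt3 promoter, chr11:103773925-103774224, plus strand: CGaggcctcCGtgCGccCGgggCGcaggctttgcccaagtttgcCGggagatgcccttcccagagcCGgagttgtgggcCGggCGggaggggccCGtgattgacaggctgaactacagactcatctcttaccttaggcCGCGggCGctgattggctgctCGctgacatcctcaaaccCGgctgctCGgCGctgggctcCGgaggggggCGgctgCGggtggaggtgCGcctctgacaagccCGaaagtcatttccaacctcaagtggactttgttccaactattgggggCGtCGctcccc
Fzd7 promoter, chr1:59481897-59482196, plus strand: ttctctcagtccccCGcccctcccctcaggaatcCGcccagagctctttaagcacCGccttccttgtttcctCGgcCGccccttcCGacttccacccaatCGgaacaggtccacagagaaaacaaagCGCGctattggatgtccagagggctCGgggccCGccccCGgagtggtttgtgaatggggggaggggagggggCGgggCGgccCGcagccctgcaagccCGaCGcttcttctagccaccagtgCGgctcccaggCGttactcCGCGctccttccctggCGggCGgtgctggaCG
Sfrp5 promoter, chr19:42202203-42202502, minus strand: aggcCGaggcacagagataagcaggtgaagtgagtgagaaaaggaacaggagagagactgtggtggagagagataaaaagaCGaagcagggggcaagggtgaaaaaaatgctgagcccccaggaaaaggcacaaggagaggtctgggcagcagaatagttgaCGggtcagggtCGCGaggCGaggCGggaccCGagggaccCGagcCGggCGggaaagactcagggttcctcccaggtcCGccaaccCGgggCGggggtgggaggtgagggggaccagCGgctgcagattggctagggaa
The RYBP peaks of wild-type cells covered all 300 bases of each of these promoters. H2AK119ub covered all 300 bases at Wnt3 and at Sfrp5 in both genotypes. At Fzd7 it covered 42 bases in the knockout and 0 in the wild type, and at Frat1 and Frat2 it covered 0 bases of the promoter in both genotypes, because the knockout peaks there began inside the gene. The CG count was 19 at Frat1, 34 at Frat2, 24 at Wnt3, 24 at Fzd7 and 15 at Sfrp5. CG reads the same on both strands, and 94.6% of all 32851 RefSeq promoters in the table hold at least 1. Promoters with at least as many CG as Frat2 made up 7.73% of them, and with at least as many as Sfrp5 34.6%.

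Member promoters held more CG than the median promoter. The median was 28 CG per promoter over the 32 members (lowest 6 at Wnt8b, highest 58 at Wnt9a), against 14 over the 17274 protein-coding genes with a promoter. Protein-coding promoters with a RYBP peak had a median of 24 and those without one a median of 7. Receptors had a median of 35 CG (n = 6), ligands 29 (n = 15) and antagonists 17.5 (n = 6). RYBP lay on 28 of the 32 member promoters, 87.5%, where the share over protein-coding promoters was 30.5%. The promoters without RYBP were those of Wnt8b, Fzd5, Axin2 and Rspo4. H2AK119ub touched 21 of the 32 promoters in the knockout and 19 in the wild type, against 8.17% and 10.7% of protein-coding promoters. It touched 17 in both genotypes, against 6.21%. The promoters of Wnt4, Wnt7a, Fzd1 and Fzd7 were touched in the knockout alone, 4 of 32 (95% Wilson interval 5.0% to 28.1%) against 1.96%. Those of Fzd10 and Dkk2 were touched in the wild type alone, 2 of 32 (1.7% to 20.1%) against 4.46%. With their 2 kb flanks, all of these genes but Dkk2 were marked in both genotypes. At Fzd7 the nearest wild-type peak lay 95 bp inside the gene start, and at Fzd10 the nearest knockout peak lay 114 bp inside. At Wnt4, Wnt7a and Fzd1 the nearest wild-type peaks lay 278, 357 and 1600 bp from the start. RYBP without the mark of either genotype lay on 6 promoters, those of Fzd4, Frzb, Dkk1, Wif1, Frat1 and Frat2, which is 18.8% against 22.2%.

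H2AK119ub was present over most of the 47 genes. In the knockout 39 were marked, 83.0% (95% Wilson interval 69.9% to 91.1%), and in the wild type 37, 78.7% (65.1% to 88.0%), while 23.6% and 27.9% of all protein-coding genes were marked. RYBP was present over 41 members, 87.2% (74.8% to 94.0%), against 37.6% of all genes. The intervals here and below cover counting error only and treat genes as independent, although neighbouring members can share a domain. The members' windows were of ordinary size, with a median of 24802 bp against 21329 bp over all genes. Median covered length over the 47 members, zeros included, was 3143 bp in the knockout, 2989 bp in the wild type and 2539 bp for RYBP, and over all genes each of these medians was 0.

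**Figure D1:**
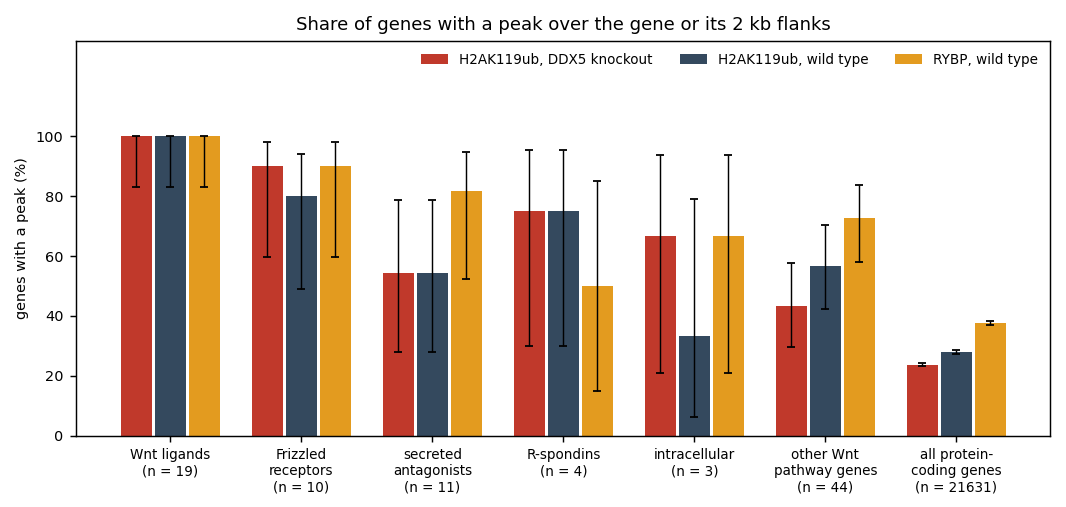
Share of genes (%) with a peak over the gene or its 2 kb flanks, by role, with 95% Wilson intervals (counting error only) and 1 library per bar colour. Ligands stand at 19 of 19 in all 3 libraries, antagonists at 6 of 11 for H2AK119ub in either genotype, and all protein-coding genes at 23.6%, 27.9% and 37.6%.

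All 19 ligand genes carried H2AK119ub in the knockout and in the wild type, and all 19 carried RYBP in the wild type. This share of 100% has a lower limit of 83.2%, and 20.7% of all genes were marked in both genotypes. The domains were long. The median covered length per ligand was 10295 bp in the knockout and 12584 bp in the wild type. As a share of the gene with its flanks, the median was 43.8% and 48.9%. More than 10 kb was covered at 10 of 19 ligands in the knockout and at 11 in the wild type, against 2.40% and 4.03% of all genes.

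**Figure D2:**
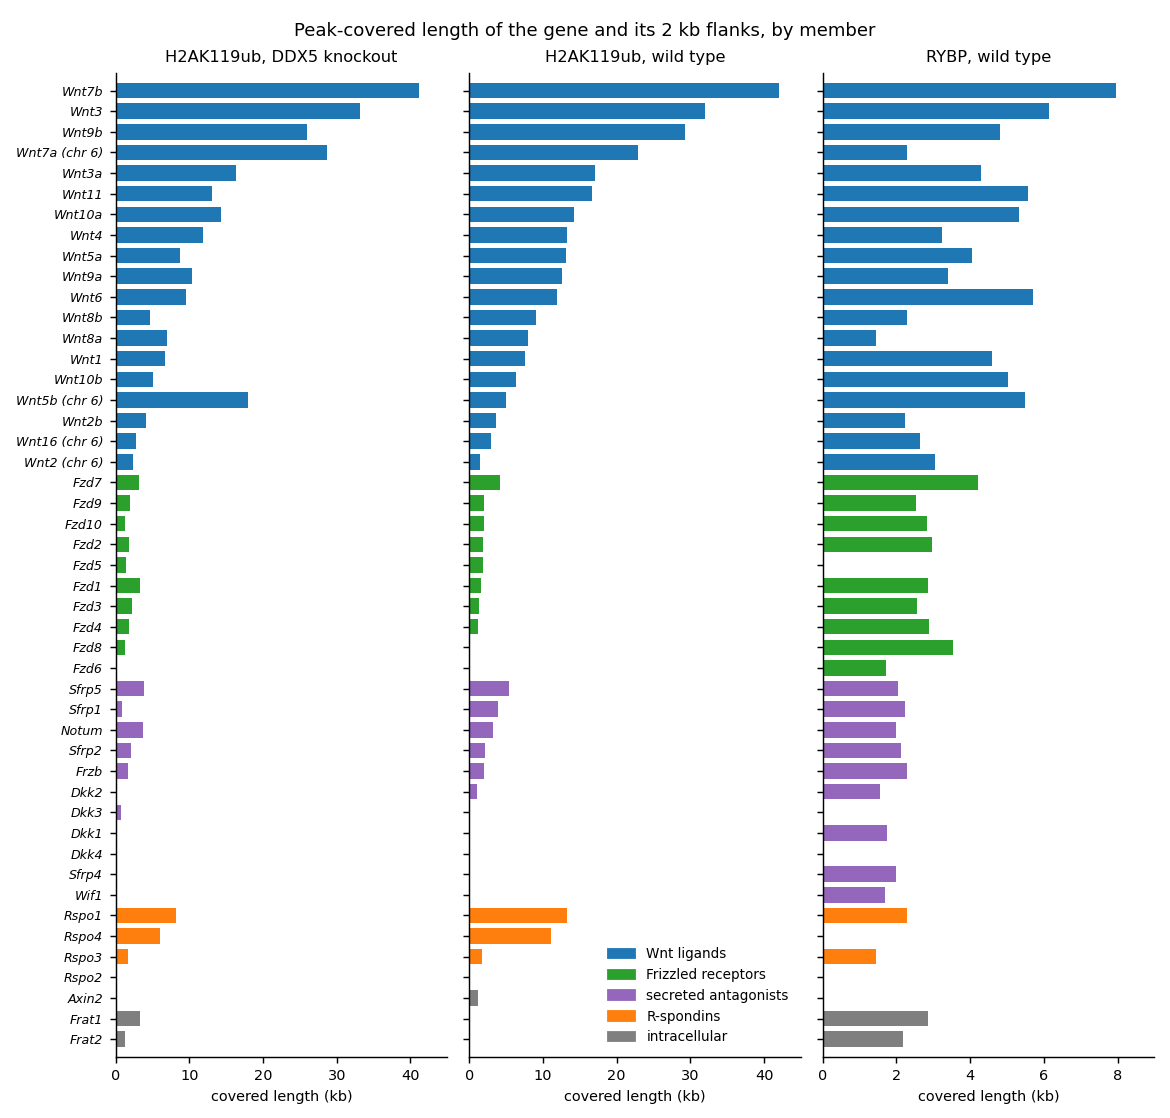
Length (kb) covered by peaks over each gene and its 2 kb flanks in the 3 libraries, with 1 bar per gene coloured by role and genes ordered within a role by wild-type H2AK119ub. The RYBP axis has its own scale. Ligands reach 41207 bp in the knockout and 42103 bp in the wild type at Wnt7b, while no receptor exceeds 3253 bp in the knockout or 4121 bp in the wild type.

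Wnt7b (chromosome 15, 85535437 to 85581821), which acts in lung and placental development, was the most covered member. H2AK119ub lay over 41207 bp in the knockout, in 15 peaks, and over 42103 bp in the wild type, in 14 peaks. That is 81.8% and 83.6% of the gene with its flanks, and RYBP covered 7947 bp, nearly all of it under the mark in either genotype. Wnt3 (chromosome 11, 103774175 to 103818021), required for gastrulation in the mouse, had 33180 bp in the knockout and 32009 bp in the wild type, with 6145 bp of RYBP. Wnt9b (chromosome 11, 103727362 to 103775272), a kidney inducer, had 25991 bp and 29346 bp, with 4820 bp of RYBP. All 3 genes carried long domains in both genotypes.

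**Figure D3:**
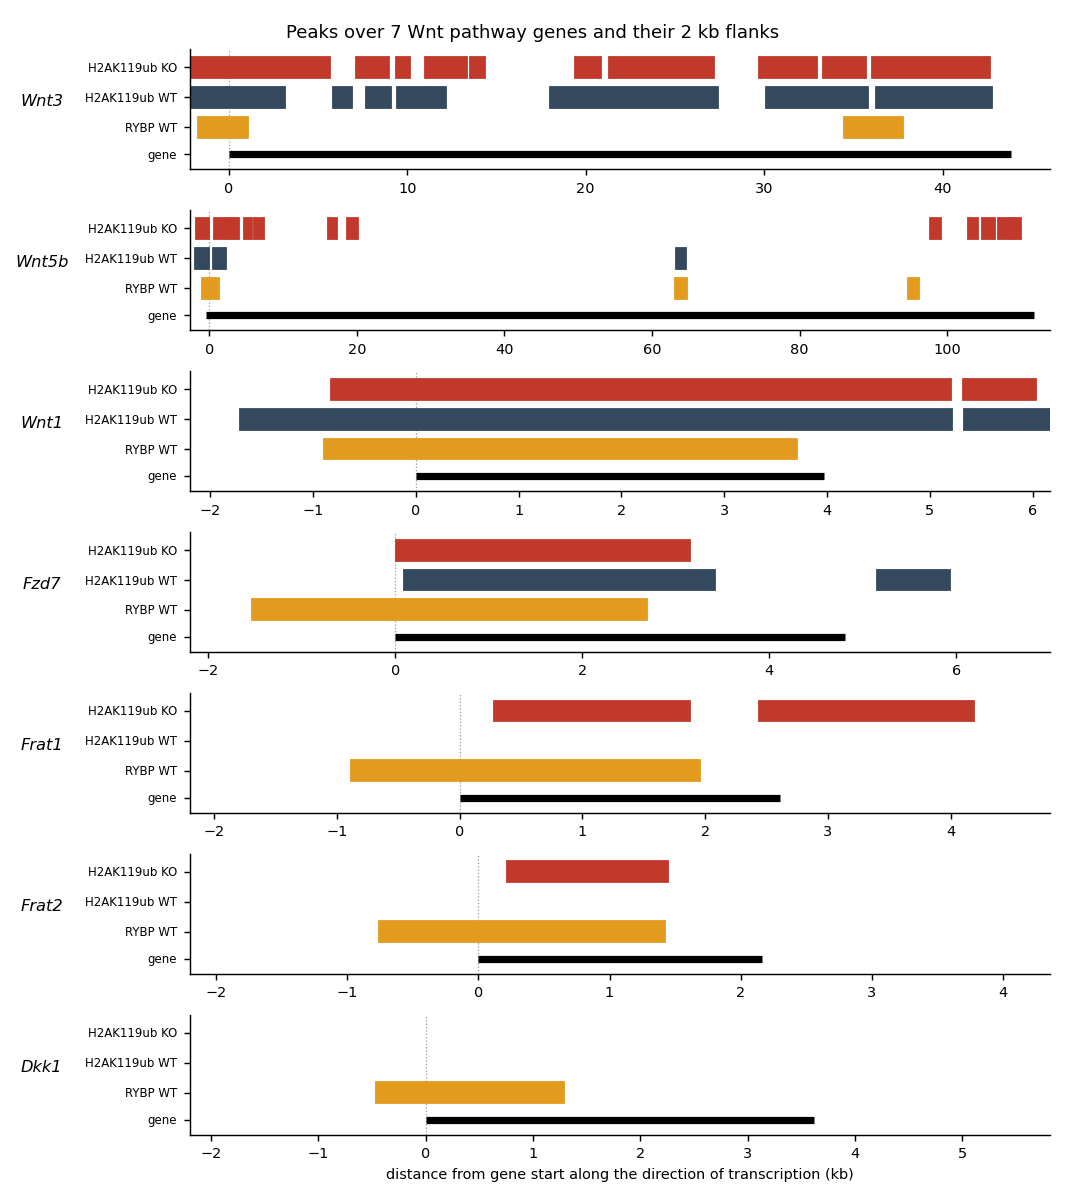
Peaks over 7 genes and their 2 kb flanks, by distance from the gene start along transcription (kb); rows show knockout H2AK119ub, wild-type H2AK119ub, wild-type RYBP and the gene, and peaks are cut at the panel edge. Wnt3 and Wnt1 carry the mark in both genotypes, Wnt5b has 12 knockout peaks against 3 in the wild type, Frat1 and Frat2 have H2AK119ub in the knockout alone, and Dkk1 has RYBP alone.

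The lowest and the highest ratio among ligands were at Wnt8b and Wnt5b. Wnt8b (chromosome 19, 44493472 to 44514273), a forebrain ligand, had 4606 bp in the knockout and 9001 bp in the wild type, a ratio of 0.51. Wnt5b (chromosome 6, 119432531 to 119544824) had 17950 bp in 12 peaks in the knockout and 4954 bp in 3 peaks in the wild type, a ratio of 3.62. Of the 12 knockout peaks at Wnt5b, the 2 nearest its RefSeq gene start overlapped wild-type peaks, and the other 10 did not. Wnt7a (chromosome 6, 91363981 to 91411353), which patterns the dorsal limb, had 28679 bp in the knockout and 22959 bp in the wild type. Both lie on chromosome 6, where knockout coverage was higher than wild-type coverage over genes in general, and the part of the chromosome in these values was not tested.

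**Figure D4:**
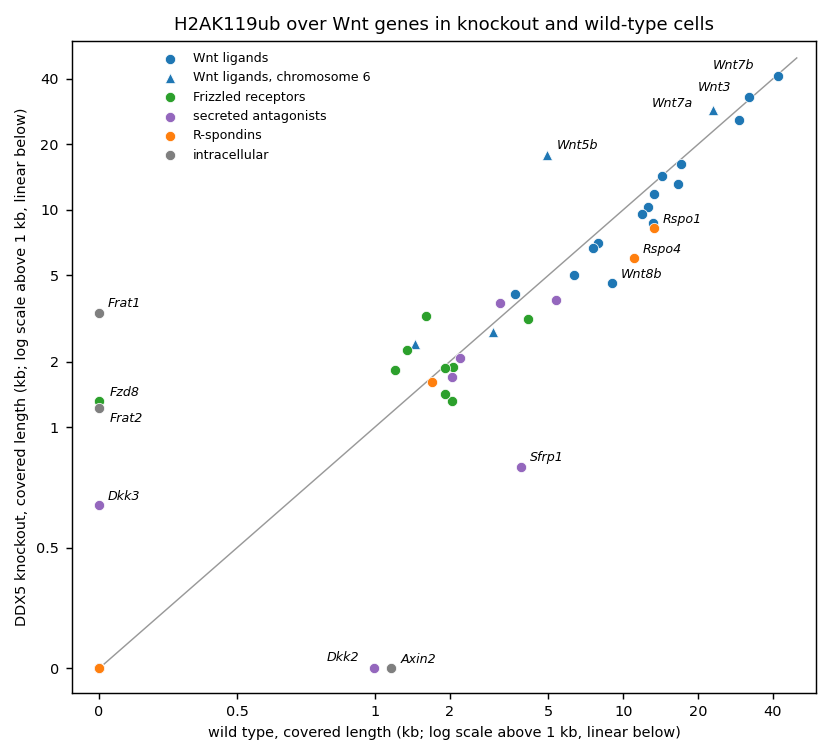
H2AK119ub covered length (kb) over each gene and its 2 kb flanks in the knockout (y axis) and the wild type (x axis); both axes are logarithmic above 1 kb and linear below, and the line marks equal lengths. Most ligands lie on or just below the line, Wnt5b and Wnt7a of chromosome 6 lie above it, 4 genes have knockout peaks alone, and 6 genes without the mark coincide at 0.

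Summed gene by gene over the 19 ligands, the mark covered 263.7 kb in the knockout and 269.1 kb in the wild type, a ratio of 0.98. The windows of Wnt3 and Wnt9b overlap, and the marked stretch that they share counts once for each gene. Without the 4 ligands of chromosome 6 the sums were 212.0 kb and 236.8 kb, a ratio of 0.90, where all protein-coding genes outside that chromosome had 0.63. Per gene, the median ratio over the 19 ligands was 0.89, and 6 had more coverage in the knockout: Wnt2, Wnt2b, Wnt3, Wnt5b, Wnt7a and Wnt10a. That is 31.6% (15.4% to 54.0%), against 21.2% of all genes marked in both genotypes. Outside chromosome 6 it was 3 of 15 ligands, against 757 of 4195 such genes. Among the other ligands of at least 10 kb in the wild type, Wnt3a, the inducer of paraxial mesoderm, had 16280 bp in the knockout and 17033 bp in the wild type. Wnt11, a ligand of non-canonical signalling, had 13084 bp and 16594 bp. Wnt5a, which drives axis elongation, had 8714 bp and 13146 bp, the lowest ratio of this longer group at 0.66. With peaks within 2 kb merged, the summed ratio of the ligands was 1.01, so its side of 1 depends on how peaks are joined.

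The remaining ligands ranged from long domains to single peaks. Wnt4, needed for kidney and ovary development, had 11814 bp in the knockout and 13262 bp in the wild type. Wnt9a, which acts in joints, had 10295 bp and 12584 bp, Wnt6 had 9605 bp and 11922 bp, and Wnt10a, a gene of tooth and hair development, had 14345 bp and 14277 bp. Wnt1, required for the midbrain, had 6686 bp in the knockout and 7564 bp in the wild type, in a window of only 7974 bp. Wnt8a had 7012 bp and 7938 bp, and Wnt10b had 5035 bp and 6319 bp. The shortest coverage was at Wnt2b, with 4104 bp and 3657 bp, at Wnt16, with 2734 bp and 2989 bp, and at Wnt2, with 2400 bp and 1445 bp. At Wnt8a the RYBP peak lay in the flank, 83 bp from the gene.

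Some ligand genes lie in pairs on the chromosome. Wnt3 and Wnt9b overlap by 1098 bp and share 1 peak in each library. Over their joint span of 90660 bp the mark covered 59.6% in the knockout and 60.5% in the wild type. The other 3 pairs shared no peak in any library, and the sequence between their genes was covered in part. Between Wnt1 and Wnt10b the mark lay over 3958 bp in the knockout and 4446 bp in the wild type, of 11650 bp. Between Wnt3a and Wnt9a it lay over 6652 bp and 6047 bp, of 16097 bp, and between Wnt6 and Wnt10a over 2358 bp and 5011 bp, of 6696 bp.

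RYBP at ligands covered shorter stretches than the mark, with a median of 4293 bp per gene. Of all RYBP-covered bases over ligands, 84.3% lay under the mark of the knockout and 85.0% under that of the wild type. Over all protein-coding genes these shares were 31.3% and 36.6%. At the gene start itself, RYBP covered 13 of 15 ligands with a RefSeq promoter, the knockout mark 11 and the wild-type mark 9, where the shares over all genes with a promoter were 28.9%, 5.61% and 7.45%. At 1 kb inside the gene, counts were 13 for RYBP, 13 for the knockout mark and 14 for the wild-type mark, against 15.0%, 10.1% and 13.1% of all genes. At 2 kb inside they were 5, 11 and 14, against 3.09%, 7.49% and 10.2%. The wild-type mark covered 13 of 15 ligands at 1 kb before the start and 9 at 2 kb before it, the same count as at the start. Over all genes it covered 8.83% at 1 kb before the start, also more than at the start itself.

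**Figure D5:**
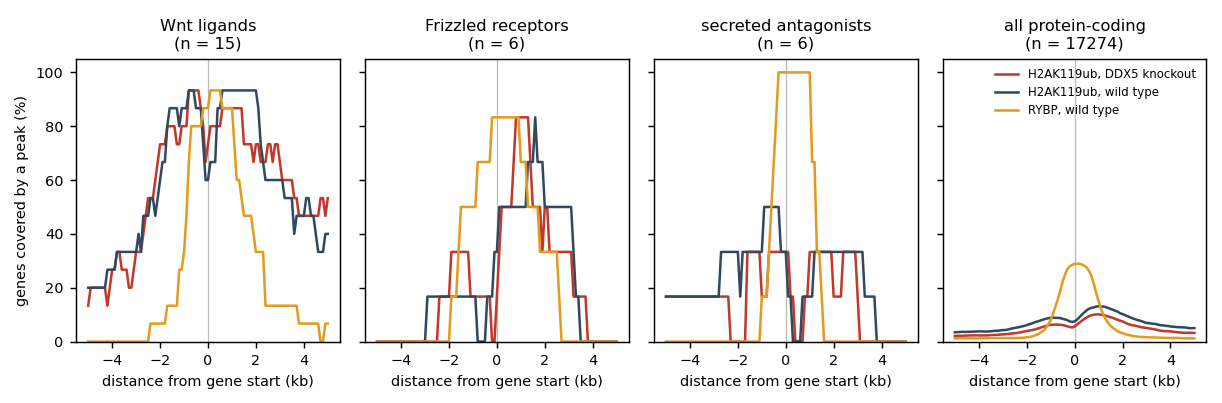
Share of genes (%) whose position at each distance from the gene start (kb, in steps of 100 bp) was covered by a peak, for ligands, receptors, antagonists and all protein-coding genes with a RefSeq promoter. RYBP covers the start of 13 of 15 ligands, 5 of 6 receptors and 6 of 6 antagonists; at 1 kb inside the gene the knockout and wild-type marks cover 13 and 14 ligands, 5 and 3 receptors, and 2 and 1 antagonists.

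Frizzled receptor genes carried short peaks in place of domains. H2AK119ub was present at 9 of 10 in the knockout (59.6% to 98.2%) and at 8 of 10 in the wild type (49.0% to 94.3%), and RYBP at 9 of 10. The shares of all genes were 23.6%, 27.9% and 37.6%. Median covered length was 1847.5 bp in the knockout and 1757.5 bp in the wild type, and the median for RYBP, 2846 bp, was longer than either. Receptor genes are short, with a median window of 8593.5 bp, and the mark covered 18.9% and 18.1% of the window at the median gene. For ligands, set against their own windows in the same way, these median shares were 43.8% and 48.9%.

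Fzd7 (chromosome 1, 59482147 to 59486955), a receptor expressed in embryonic stem cells in human and mouse, was the most covered receptor of the wild type. It had 3143 bp in the knockout and 4121 bp in the wild type, with 4226 bp of RYBP. Fzd9 had 1884 bp and 2054 bp, with 2539 bp of RYBP. Fzd10 (chromosome 5, 128601106 to 128604093) had the lowest ratio, 0.65, from 1324 bp in the knockout and 2049 bp in the wild type. Fzd1 (chromosome 5, 4753839 to 4758216) had the highest, 2.03, from 3253 bp in the knockout and 1599 bp in the wild type. Fzd2 had 1860 bp and 1921 bp, and Fzd5, the only receptor without a RYBP peak, had 1413 bp and 1916 bp.

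Fzd3, a receptor of axon guidance and planar polarity, had 2259 bp in the knockout and 1345 bp in the wild type, and Fzd4, the receptor for Norrin in retinal vessels, had 1835 bp and 1200 bp. At both genes the wild-type peak lay in the flank and not in the gene, 56 bp away at Fzd3 and 800 bp away at Fzd4, so both would count as marked in the knockout alone if flanks were dropped. These were the only H2AK119ub calls made by a flank alone. Among members without the mark, the nearest peak outside the window was 10968 bp away in the knockout, at Axin2, and 26179 bp away in the wild type, at Dkk3.

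Fzd8 (chromosome 18, 9212856 to 9216201) was marked in the knockout alone, by 1 peak of 1311 bp from 9212201 to 9213511. All of that peak lay under a wild-type RYBP peak of 3526 bp. Fzd6, which acts in hair and planar polarity, had RYBP over 1714 bp and no mark in either genotype. Across the 10 receptors, 45.5% of RYBP-covered bases lay under the knockout mark and 40.2% under the wild-type mark. Summed coverage was 18.3 kb in the knockout and 16.2 kb in the wild type, a ratio of 1.13, and Fzd1 and Fzd8 together exceed that difference. With peaks of at least 1 kb alone the ratio was 0.99.

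Secreted antagonists were the least marked of the larger classes. H2AK119ub was present at 6 of 11 in the knockout and at 6 of 11 in the wild type (28.0% to 78.7% for each), with 5 in both, and RYBP at 9 of 11 (52.3% to 94.9%). Over all genes the mark was present at 23.6% in the knockout, 27.9% in the wild type and 20.7% in both, and RYBP at 37.6%. Median covered length was 677 bp in the knockout and 995 bp in the wild type, against 1979 bp for RYBP. Summed coverage was 12.8 kb in the knockout and 17.7 kb in the wild type, a ratio of 0.73. No antagonist lies on chromosome 6, and all genes outside that chromosome had 0.63. Without the antagonists of chromosome 8 the ratio was 0.87. Of RYBP-covered bases over antagonists, 29.4% lay under the knockout mark and 33.7% under the wild-type mark, against 31.3% and 36.6% over all genes. The Wilson intervals of antagonists and ligands did not overlap for the mark, while those of antagonists and receptors did. Antagonist windows were shorter than ligand windows, with medians of 13651 bp and 26906 bp. Receptor windows were shorter still, with a median of 8593.5 bp. The part of window length in these shares was not tested. In the promoter window, which has the same length for every gene, the wild-type intervals overlapped (18.8% to 81.2% for antagonists, 54.8% to 93.0% for ligands), and the knockout intervals were 9.7% to 70.0% and 70.2% to 98.8%.

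The secreted Frizzled-related proteins, which bind Wnt ligands outside the cell, differed among themselves. Sfrp5 (chromosome 19, 42197971 to 42202252) had 3832 bp in the knockout and 5363 bp in the wild type, with 2039 bp of RYBP. Sfrp1 (chromosome 8, 23411383 to 23449632) had 836 bp in the knockout and 3884 bp in the wild type, the lowest ratio of all members marked in both, at 0.22. Its knockout peaks, 925 and 787 bp wide, lay inside the wild-type peaks of 1652 and 2470 bp, and the wild-type peak of 1163 bp had no counterpart. The peaks of 925 and 1652 bp reached only the edge of the window, 1951 bp and 1749 bp from the gene. Most of their length therefore lies outside the window and is not in the covered lengths. Both knockout peaks are under 1 kb, so with peaks of at least 1 kb alone Sfrp1 was marked in the wild type alone. Over protein-coding genes of chromosome 8 in general the ratio of covered length was 0.64. Sfrp2 had 2074 bp and 2206 bp, and Frzb had 1697 bp and 2047 bp. Sfrp4 had RYBP over 1990 bp and no H2AK119ub in either genotype.

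Notum (chromosome 11, 120653788 to 120661193) encodes the enzyme that removes the lipid from Wnt ligands. It had the highest ratio among antagonists, 1.16, with 3720 bp in the knockout and 3203 bp in the wild type. Of the 4 Dickkopf genes, whose member Dkk1 encodes a ligand of the LRP co-receptors that blocks Wnt signalling, 1 was marked in each genotype, a share close to that of all genes. Dkk2 (chromosome 3, 132085266 to 132180304) was marked in the wild type alone, by 1 peak of 995 bp from 132084387 to 132085381 that RYBP overlapped by 431 bp. Dkk3 (chromosome 7, 112116019 to 112159482) was marked in the knockout alone, by 1 peak of 677 bp from 112157275 to 112157951, and had no RYBP. Neither the Dkk2 nor the Dkk3 call was left with peaks of at least 1 kb alone. Dkk1 had 1753 bp of RYBP and no mark, and Dkk4 had no peak in any library. Wif1, which binds Wnt ligands directly, had 1689 bp of RYBP and no mark.

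Sfrp4, Dkk1, Wif1 and Fzd6 were thus the 4 members with RYBP and without H2AK119ub in either genotype, 8.51% of the 47, against 16.4% of all genes. At Dkk1 the RYBP peak was 1753 bp wide with its centre 409 bp inside the gene, and at Wif1 it was 1689 bp wide with its centre 173 bp inside. Of the 41 members with RYBP, 37 carried the mark in at least 1 genotype, 90.2% (77.5% to 96.1%), and of all genes with RYBP 56.5% did. The members with the mark in at least 1 genotype also numbered 41, and 37 of them had RYBP, against 68.9% of all marked genes.

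R-spondins bind Lgr receptors and raise Wnt signalling by removing the ligases Znrf3 and Rnf43 from the membrane. Rspo1 (chromosome 4, 124986401 to 125009102) had 8202 bp in the knockout and 13243 bp in the wild type, with 2274 bp of RYBP. Rspo4 (chromosome 2, 151842647 to 151874668) had 5983 bp and 11034 bp, a ratio of 0.54, and no RYBP. Rspo3 had 1607 bp and 1696 bp, a ratio of 0.95, and Rspo2 had no peak in any library. None of the 4 genes lies on chromosome 6, and summed over them the ratio was 0.61. Outside that chromosome the ligands had 0.90 and all protein-coding genes 0.63.

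Frat1 and Frat2 encode GSK3-binding proteins that keep GSK3 from acting on beta-catenin, and they lie 13388 bp apart on chromosome 19. Frat1 (41829970 to 41832583) had 2 knockout peaks, of 1599 and 1758 bp, that covered 3357 bp, and no wild-type peak. Frat2 (41845972 to 41848132) had 1 knockout peak of 1229 bp and no wild-type peak. RYBP peaks of the wild type, 2845 bp wide at Frat1 and 2180 bp wide at Frat2, overlapped the first Frat1 peak over all its 1599 bp and the Frat2 peak over 1206 bp. The mark covered 25.2% of the span from Frat1 to Frat2 in the knockout and 0.0% in the wild type. The knockout peaks began 279 bp and 216 bp inside the gene starts. The absence of a peak shows only that none was called, since peak heights were not used.

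Axin2 (chromosome 11, 108917828 to 108950783), a scaffold of the destruction complex and a widely used target gene of the canonical pathway, was marked in the wild type alone. Its single peak of 1163 bp, from 108948560 to 108949722, lay near the far end of the gene, and its promoter carried neither H2AK119ub nor RYBP.

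Compared by genotype, 35 members were marked in both, 4 in the knockout alone and 2 in the wild type alone. The 4 were Fzd8, Dkk3, Frat1 and Frat2, 8.51% of the members (3.4% to 19.9%), where 3.00% of all genes were marked in the knockout alone. The 2 were Dkk2 and Axin2, 4.26% (1.2% to 14.2%), where 7.20% of all genes were. Frat1 and Frat2 are neighbours, and neither share was tested against the background. Of the 37 members marked in the wild type, 35 were also marked in the knockout, 94.6% (82.3% to 98.5%), against 74.1% of all genes. For this, 1 bp of any knockout peak in the window is enough, so genes with more or wider peaks meet it more easily. The part of coverage in this share was not tested. None of the 6 genes marked in 1 genotype alone lies on chromosome 6.

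Summed gene by gene over the 47 members, the mark covered 315.2 kb in the knockout and 330.1 kb in the wild type, a ratio of 0.95, and 250.0 kb was covered in both. Without chromosome 6 the sums were 263.5 kb and 297.8 kb, a ratio of 0.88, beside 0.63 for all genes outside that chromosome. Among the 35 genes marked in both, 10 had more coverage in the knockout, 28.6% (16.3% to 45.1%) against 21.2% of all such genes. Outside chromosome 6 it was 7 of 31, 22.6% (11.4% to 39.8%), against 757 of 4195 such genes. On chromosome 6 the 4 ligands had 51.8 kb in the knockout and 32.3 kb in the wild type, a ratio of 1.60.

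The members' windows touched 155 knockout peaks, 127 wild-type peaks and 58 RYBP peaks. Peaks over members were wider than their whole lists, with a median of 1499 bp against 1083 bp in the knockout, 2047 bp against 1360 bp in the wild type and 2192 bp against 1634 bp for RYBP, the second of each pair being the whole list. Of the 127 wild-type peaks at members, 108 shared sequence with a knockout peak, 85.0% (77.8% to 90.2%), against 48.9% of the whole list. The whole lists, here and below, are not limited to peaks at genes, while every member peak touches the window of a gene. Wide peaks were found again more often in general, so the share was read by width. Under 1 kb, 6 of 12 member peaks overlapped a knockout peak, 50.0% (25.4% to 74.6%), against 22.0% of all peaks of that width. From 1 to 2 kb, 36 of 48 member peaks overlapped a knockout peak, 75.0% (61.2% to 85.1%), against 43.4% of all peaks of that width. From 2 to 5 kb these values were 50 of 51, 98.0% (89.7% to 99.7%), against 80.7%. At 5 kb and more, all 16 member peaks were found again, and 98.5% of all such peaks. With RYBP the share was 52 of 55 member peaks, 94.5%, and without RYBP 56 of 72, 77.8%, against 75.7% and 41.5% over all wild-type peaks. This split was not read by width, and peaks with RYBP were wider, with medians of 2955 bp against 1668.5 bp at members and 2015.5 bp against 1250.0 bp over all wild-type peaks. Peaks of 1 domain are neighbours, so these intervals are too narrow.

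Other genes of the Wnt pathway were read from a list of 44 co-receptors, secretion factors, inhibitors, cytoplasmic and nuclear components and planar polarity genes. H2AK119ub was present at 19 in the knockout, 43.2% (29.7% to 57.8%), at 25 in the wild type, 56.8% (42.2% to 70.3%), and RYBP at 32, 72.7% (58.2% to 83.7%), where the shares of all genes were 23.6%, 27.9% and 37.6%. Their windows were long, with a median of 75308 bp against 21329 bp over all genes. The longest wild-type coverage was at Nkd1, a Dishevelled-binding inhibitor, with 32042 bp in the knockout and 50604 bp in the wild type. Nkd1 lies on chromosome 8, where the wild-type mark covered 8.62% of the summed gene windows, against 3.24% over all genes. Celsr2, a planar polarity cadherin, had 22916 bp and 25457 bp, and Lgr6, an R-spondin receptor, had 6301 bp and 15053 bp. Tcf7l2, a nuclear partner of beta-catenin, and Prickle2 were marked in the knockout alone, with 1822 bp and 1940 bp, and Prickle2 lies on chromosome 6. These 2 genes are 4.55% of the list, against 3.00% of all genes. Marked in the wild type alone were Ror1, Ptk7, Apcdd1, Dvl2, Gsk3a, Tcf7l1, Pygo1 and Vangl2, 8 genes or 18.2% (9.5% to 32.0%), against 7.20% of all genes. Summed coverage of the 44 genes was 141.0 kb in the knockout and 186.4 kb in the wild type, a ratio of 0.76. By role, the mark was present at 3 of 10 cytoplasmic genes in the knockout and 5 of 10 in the wild type, and at 3 of 9 co-receptors in the knockout and 5 of 9 in the wild type. It was present at 5 of 9 inhibitors in the knockout and 6 of 9 in the wild type, and at 3 of 7 and 4 of 7 nuclear genes. Planar polarity genes had it at 5 of 7 in each genotype, and the 2 secretion genes had none.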

How the data were processed

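Peak lists from 3 ChIP-seq libraries were used, those of H2AK119ub in DDX5 knockout and in wild-type cells and that of RYBP, and groups follow the sample titles. The submitters' processing notes name Bowtie2 2.2.5, MACS 1.4 and mm10. How peaks were thresholded, and whether inputs served as controls, is not given in the sources used here. Deposited lists, called per library, hold peak positions, and their score column holds 0 in every row, so no peak height or significance was used.

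Gene positions are RefSeq's for GRCm38.p6, matched by symbol, and promoters and strands from RefSeq promoters of that build. Covered length is the number of bases of a gene and its 2 kb flanks under peaks. Sums add these lengths gene by gene, so bases in the windows of several genes count for each. Shares have 95% Wilson intervals. Python 3.11.15 was used, figures were drawn with matplotlib 3.10.9, and the interval code was tested on simulated data. No test between genotypes is possible with 1 library per group. The members, the lists and the promoter windows were chosen with earlier results of these data known.

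All 47 members are named. Full values were given for members marked in 1 genotype alone, and in each class for the 3 with the longest wild-type coverage and for those with the lowest and the highest ratio, and further members were added for completeness. Wnt7b has no promoter entry, so the next ligand, Wnt3, is printed. Alternatives were other windows, overlaps, peak widths, equal numbers of peaks, merged peaks and chromosomes left out. The promoter window was added after seeing the data.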

Additional observations from a re-analysis of the deposited data

How the results depend on the processing

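The number of marked members and the counts of members marked in 1 genotype or in both stayed within 1.5 times the reported value under the 9 alternatives set out first. Without flanks, Fzd3 and Fzd4 joined the members marked in the knockout alone, 6 in place of 4. With peaks of at least 1 kb, Dkk3 and Dkk2 lost their only peak and Sfrp1 was marked in the wild type alone. The ratio of knockout to wild-type covered length, 0.95 as reported, was 0.96 with gene bodies alone, 0.93 with 5 kb flanks, 0.97 within 2 kb of gene ends, 0.96 with an overlap of at least 50%, 0.91 with peaks of at least 1 kb, 0.97 with the widest H2AK119ub peaks in equal number, 0.98 with peaks within 2 kb merged, 0.88 without chromosome 6 and 0.89 without chromosomes 6 and 8. The share of wild-type peaks found again was 74.4% with the 50% overlap, which by construction asks for more overlap. It was 91.2% of 57 peaks after merging, which still asks for 1 bp but joins peaks into fewer, wider ones. In the 300-base promoter window, added after seeing the data and available for 32 members, 21 were marked in the knockout, 19 in the wild type and 17 in both, 22 had RYBP with the mark, and 12 ligands, 1 receptor and 2 antagonists were marked in both. The 4 promoters marked in the knockout alone were those of other genes than the 4 genes so marked. Of those 4 genes, Fzd8 and Dkk3 have no promoter entry and could not be counted, and the Frat1 and Frat2 promoters carried no mark. These counts come out of fewer members and a smaller window. No paired analysis was possible because each group has 1 library. Unknown read depth limits every absence of a peak.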

Other observations

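Around Frat1 and Frat2 the neighbouring protein-coding genes within 50 kb, Arhgap19 and Rrp12, had no H2AK119ub in either genotype over the gene and its 2 kb flanks, and Arhgap19 had 1125 bp of RYBP. Usp47, which lies 4632 bp from Dkk3, had no mark in either genotype and 1790 bp of RYBP.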
